A study of Mus musculus with 2 samples.

Results

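The Onecut2/Prox1 cells described here were sought as horizontal cells in single cell RNA sequencing of newborn mouse eye cups. They were 479 of the 26158 barcodes that passed the cell filters, 210 of 14131 in the control library and 269 of 12027 in the mutant library. Both libraries were made at postnatal day 0 (P0), each from a pool of 3 eye cups after removal of the cornea, lens and optic nerve. The control pool was Myrf fl/fl. The mutant pool was Rx>cre Myrf fl/fl, so that both genotypes carried the floxed Myrf allele and the mutant also carried cre driven from Rx, a homeobox gene of the early eye field. Myrf codes for a transcription factor held in membranes, and the design asks what its removal from the optic cup does to the pigment epithelium and to its neighbors. With 1 library per genotype there is no replicate and no test between genotypes. Intervals are exact 95% intervals of counting error alone and say nothing of the spread between animals.

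Horizontal cells are interneurons of the outer retina that carry feedback to photoreceptor terminals. In the mouse they are among the early born retinal neurons. Their fate is set by Ptf1a, which is shared with amacrine cells, and by Onecut1 and Onecut2. Lhx1 and Prox1 then act in their specification and placement, and Calb1 (calbindin) and neurofilaments mark the differentiated cell. Prox1 is not confined to them, since it is also found in amacrine and bipolar cells and in some progenitors.

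The members were chosen by their own UMI counts. A cell was taken when its barcode held at least 1 unique molecular identifier (UMI) of Onecut1 or Onecut2 and at least 1 of Lhx1 or Prox1, and none of Pou4f1, Pou4f2 (ganglion cells), Thrb, Rxrg (cones), Pecam1, Cdh5 (endothelium) or Mki67 (dividing cells). A demand for 2 UMIs over these genes and Tfap2b removed no further cell, as the first 2 conditions already imply it. Both gene pairs were present in 343 control and 429 mutant barcodes. Mki67 removed the most, 105 control and 128 mutant barcodes, and Thrb or Rxrg removed 27 and 37. Pecam1 or Cdh5 removed 14 and 8, and Pou4f1 or Pou4f2 removed 5 and 6. Of the members just inside the limit, 93 control cells (44.3%) and 99 mutant cells (36.8%) held exactly 1 UMI of each pair. In 33 and 46 members both pairs reached 2 UMIs. Just outside lay 744 control and 776 mutant barcodes with a Onecut UMI and no Prox1 or Lhx1, and 1037 and 1014 with Prox1 or Lhx1 and no Onecut, counted with the same exclusions.

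The data went against the label. Lhx1, the most specific of the 4 markers, was found in 2 of the 210 control members (3 UMIs) and in 3 of the 269 mutant members (5 UMIs). In the whole libraries it was read 12 and 22 times, in 11 and 19 kept barcodes. Prox1 alone met the second condition in 208 control and 266 mutant members. Onecut2 was present in 204 and 258 members and Onecut1 in 11 and 18. Calb1, Gja10 (connexin 57, the gap junction protein of horizontal cells) and Nefh were at 0 in the members of both libraries, and over all kept barcodes Calb1 had 5 and 13 UMIs. At 0 counts the upper limit for these genes was 2.55 counts per 1000000 UMIs (CPM) in the control members and 1.95 CPM in the mutant members. The members are therefore named by their genes, Onecut2/Prox1 cells, and no cell type is given to them.

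The choice also depended on how deeply a barcode was read. Members had a median of 5524.5 UMIs in the control (534 to 22295) and 5919 in the mutant (1188 to 25737), against 4231 and 4990 over all kept barcodes. After each barcode was thinned to 2000 UMIs, Prox1 or Lhx1 was detected in 66 of 631 control barcodes with a Onecut UMI, or 10.5% (8.18 to 13.1). The share was 8.66% (8.14 to 9.21) of control barcodes without Onecut. In the mutant the shares were 68 of 720, or 9.44% (7.41 to 11.8), with Onecut and 9.36% (8.81 to 9.94) without. At equal depth the intervals overlapped in both libraries, and no excess of Prox1 among Onecut barcodes was detectable at this depth.

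Some facts of the libraries bear on every value. They held 79017429 and 76272867 UMIs in all, of which members held 1443951 and 1894768. The libraries shared 59 cell barcodes. None was a member in both, and 1 control and 2 mutant members carried 1 of them. Among control members 67.1% held a Y-linked UMI and no Xist, and among mutant members 75.8% held Xist and no Y-linked UMI. Xist stood at 60.3 CPM in control and 1793 in mutant members, and Eif2s3y at 125 and 26.9. The pools thus differed in sex, and genotype and sex cannot be told apart. Myrf itself was read 4 times in control members and once in mutant members, 2.77 (0.75 to 7.09) and 0.53 (0.01 to 2.94) CPM, which is too few to check the genotype in these cells. Over the other kept barcodes it stood at 11.4 and 1.73 CPM. Tmem98, whose product binds MYRF, stood at 31.9 and 31.7 in the members.

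Relative to all kept barcodes the members made up 1.49% of the control library (1.29 to 1.70) and 2.24% of the mutant library (1.98 to 2.52). The ratio was 1.51-fold, a log2 of 0.59 (0.32 to 0.86). Over the same denominator the share of Tfap2a/Tfap2b neurons, a group without Onecut described further on, had a log2 ratio of 0.67 (0.45 to 0.90), so the excess was not particular to the members. Collagen-rich cells, with 10 or more UMIs of fibrillar collagen genes, numbered 4337 in the control library and 1287 in the mutant one, so the denominators differed in makeup. Among neurons, taken as barcodes with at least 3 UMIs over Tubb3, Stmn2, Elavl3 and Elavl4, members were 154 of 2244 in the control library, or 6.86% (5.85 to 7.99), and 194 of 2511 in the mutant library, or 7.73% (6.71 to 8.84). That log2 ratio was 0.17 (-0.14 to 0.49). When the rule was applied after thinning every barcode to 2000 UMIs, 56 of 11435 control barcodes (0.490%) and 58 of 11218 mutant barcodes (0.517%) met it, a log2 ratio of 0.08 (-0.48 to 0.63). Among barcodes with Y-linked UMIs and no Xist, a split chosen after seeing the data, the log2 ratio was -0.48 (-1.19 to 0.16; 141 control and 23 mutant members). Among barcodes that held Xist without Y-linked UMIs it was 2.65 (1.27 to 4.54; 4 control and 204 mutant members). The excess in the mutant was seen with all kept barcodes as denominator. It was not detectable among neurons or at equal depth, and the splits by Xist and Y-linked UMIs differed in sign.

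**Figure D1:**
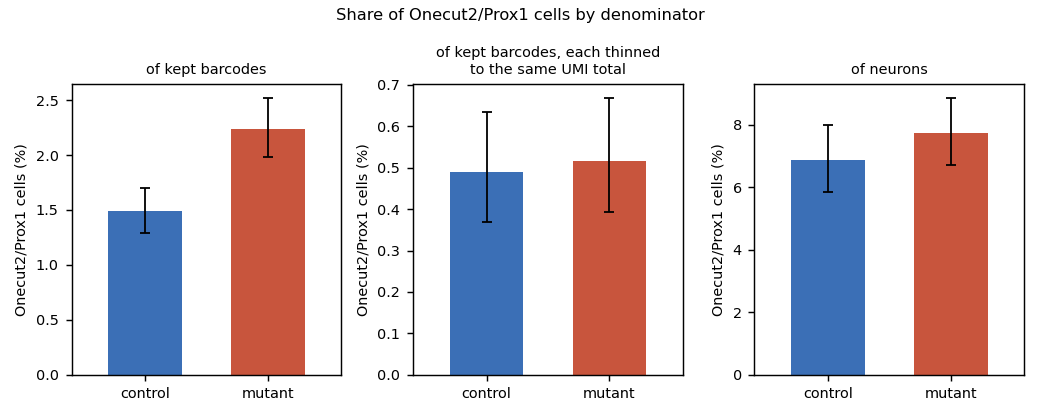
Share of Onecut2/Prox1 cells in percent (bars, axis from 0) in the control and mutant library, with exact 95% binomial intervals, over 3 denominators. The bars differ over all kept barcodes (1.49% and 2.24%), while the intervals overlap after thinning (0.490% and 0.517%) and among neurons (6.86% and 7.73%).

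Levels were computed over the summed members, with the same sum over other neurons (2090 control and 2317 mutant barcodes that met the neuron rule and not the gate) beside them. These are 3' counts, so a level is not corrected for gene length and compares 1 gene between groups, not gene with gene. Log2 ratios have 5 CPM added to both sides, which understates the ratio of low genes. The 7743 genes with at least 50 UMIs over the members of both libraries were compared. All 479 members enter each sum.

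The genes that chose the cells are described first, with nothing read from them. Onecut2, a cut-homeodomain factor, stood at 253 (228 to 280) CPM in control members and 230 (209 to 252) in mutant members, against 73.0 and 66.8 in other neurons. Prox1, a homeodomain factor on chromosome 1 (GRCm38, 190118035 to 190170714, minus strand), stood at 235 and 225, against 38.4 and 42.1. Tfap2b, an AP-2 factor of amacrine and horizontal cells, was present in 57.1% of control and 51.3% of mutant members. It stood at 433 and 386 CPM, against 279 and 269 in other neurons. Between genotypes Tfap2b had a log2 ratio of -0.16 (-0.32 to -0.01), which was 0.46 in members with 2 UMIs of each pair, Onecut2 -0.14 (-0.34 to 0.07) and Prox1 -0.06 (-0.27 to 0.15).

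Of 19 other genes listed for horizontal cells, 6 reached the minimum of 50 UMIs. Ptf1a, the bHLH factor needed for horizontal and amacrine fates, led them with 775 control and 977 mutant UMIs. Its level was 537 (500 to 576) CPM in control and 516 (484 to 549) in mutant members, against 276 and 256 in other neurons, and 114 and 141 members held it. Thinned to 1000 UMIs, 29.3% of control and 29.7% of mutant members held Ptf1a, against 2.85% and 1.19% of collagen-rich cells, which should lack it (unthinned 54.3% and 52.4% against 5.93% and 2.49%, at median depths of 5524.5, 5919, 5088 and 11454 UMIs). Gad2, which makes GABA, stood at 311 and 329 against 188 and 223. On the same strand 2 annotated genes overlap it, so that part of its count could belong to them. Summed, the genes for GABA synthesis and transport stood at 586 and 594 CPM in the members. In Tfap2a/Tfap2b neurons they stood higher, at 993 and 1084, so the level was not particular to the members. Tfap2a, the AP-2 partner of Tfap2b, stood at 185 (163 to 208) and 152 (135 to 171), against 134 and 126. Its ratio of mutant to control was a log2 of -0.27 (-0.53 to -0.04), and it was the only 1 of the 6 measured genes of this list whose counting interval did not span 0, where 4.8% of all genes tested lay below 0 and 6.22% above, so that nothing is read from this count. In members with 3 neuron UMIs its interval did span 0 (-0.46 to 0.04). In members with 2 UMIs of each pair Tfap2a was at -0.79 (-1.27 to -0.35) and Ptf1a at 0.42 (0.17 to 0.67).

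Slc32a1, the vesicular GABA transporter, stood at 40.9 and 50.1 CPM, Tpm3 at 148 and 164, and Sept4 at 29.1 and 37.5. Their intervals overlapped between the libraries. The median log2 ratio of mutant to control over the 6 measured genes was 0.11, beside 0.03 over all genes tested and 0.05 for the same 6 genes in other neurons. The remaining 13 genes did not reach the minimum. Onecut3 had 1 control and 2 mutant UMIs, Nefl 3 and 5, Nefm 14 and 26, and Gad1, the other GABA-making enzyme, 8 and 1. Megf10 and Megf11, receptors for the spacing of horizontal cells, had 3 and 0 UMIs in control and 6 and 1 in mutant members. Summed over the whole list, control and mutant members stood at 1283 and 1285 CPM and other neurons at 884 and 909. Tfap2a/Tfap2b neurons, chosen in part for Tfap2a of this list, stood above the members, at 1658 and 1716.

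**Figure D2:**
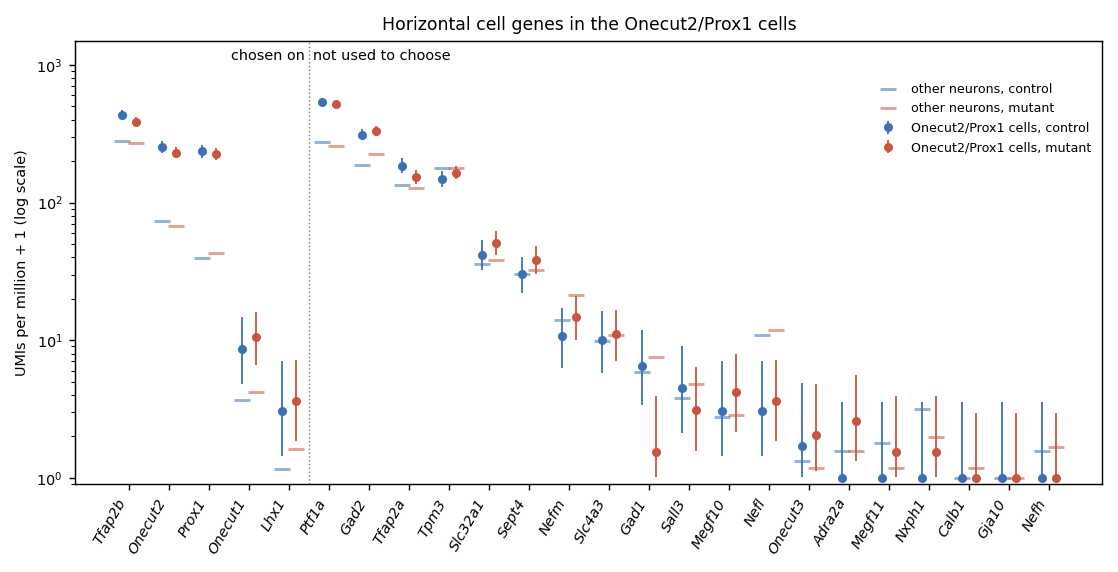
CPM plus 1 on a log axis for 5 genes of the selection rule (left of the dotted line) and 19 horizontal cell genes not used by it, in Onecut2/Prox1 cells (points with 95% Poisson intervals) and other neurons (dashes), control blue and mutant red. Ptf1a, Gad2 and Tfap2a sit above the dashes in both libraries, while Lhx1, Calb1, Gja10 and Nefh lie at or near 0.

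A description of what set the members apart from other neurons follows. It rests on cells chosen for 2 genes, shows the makeup of that choice and carries no test. Prox1, a gene of the rule, was the only gene at least 4-fold higher than in other neurons in both libraries (0.0129% of the genes tested). At 2-fold there were 33 such genes (0.426%), and 530 genes (6.84%) had counting intervals above 0 in both libraries, while 379 (4.89%) had them below. The 25 genes outside the rule with the highest lower of both ratios were named. Calb2 (calretinin), a calcium-binding protein of amacrine and other retinal neurons, had 212 control and 282 mutant UMIs. It stood at 147 (128 to 168) and 149 (132 to 167) CPM, against 46.7 and 47.0, a log2 ratio of 1.56 in each library. Klhl35, a kelch-like family member, stood at 186 and 137 against 56.2 and 39.1, with log2 ratios of 1.64 and 1.68.

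Transcription factors among the 25 are given next. Nhlh2, a bHLH factor, stood at 452 (418 to 488) CPM in control and 394 (366 to 423) in mutant members, against 168 and 155 in other neurons. Prdm13, a zinc finger factor that acts with Ptf1a in amacrine development, stood at 364 and 303 against 149 and 133. Hmx1, a homeobox factor of the eye and ear, stood at 1155 and 1004 against 527 and 464, and Pou3f1 at 588 and 564 against 273 and 267. Neurod2 and Tfap2c followed the same pattern at lower levels, 38.8 and 23.8 against 10.3 and 5.59 for Neurod2, and 115 and 107 against 45.1 and 41.9 for Tfap2c. Slc1a6, a glutamate transporter of the EAAT family, stood at 345 and 292 against 126 and 109. The others included Lix1, Igfbpl1, Gm38534, St18, Tanc2, Adamts4, Fam212b, Irf5, Htr1d, Hcn4, Fgf18 and Frem1, besides 3 haemoglobin genes. The excess over other neurons was smaller when the members were chosen at 2000 UMIs per barcode. Of the 22 genes besides the haemoglobins, 4 then reached 50 UMIs, and none was 2-fold higher in both libraries. The lower of both log2 ratios was 0.45 for Nhlh2, 0.30 for Slc1a6, 0.31 for Hmx1 and -0.019 for Pou3f1. Over all members these were 1.32, 1.39, 1.11 and 1.07. In members with 2 UMIs of each pair they were larger, at 2.01, 1.90, 1.42 and 1.17, while Tfap2c went from 1.25 to 1.15.

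Single members held much of the haemoglobin UMIs. Hbb-bs was found in 95 of 210 control and 108 of 269 mutant members. It had 6211 control and 3767 mutant UMIs in the members, and 1 member held 49.8% of them in the control and 95.7% in the mutant. For Hba-a1 the top member held 50.9% and 98.0%. Without them 22 of the 25 genes remain.

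**Figure D3:**
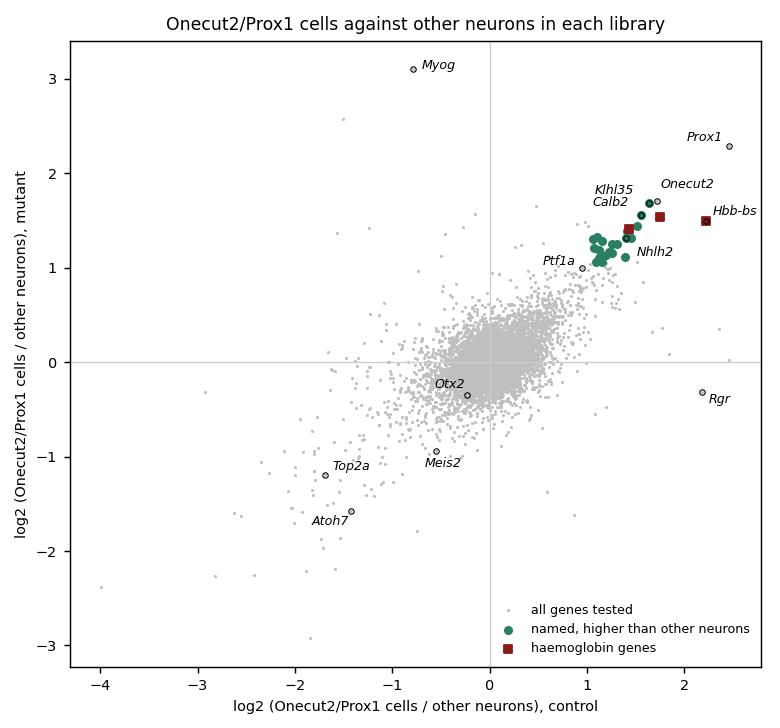
Log2 ratio of Onecut2/Prox1 cells over other neurons in the control (x axis) and mutant library (y axis), 1 point per gene tested, 5 CPM added. The named genes lie above 1 on both axes (green), the 3 haemoglobin genes are squares, and Myog and Rgr lie far off the diagonal.

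The 22 genes were set against 3 other groups of barcodes that shared none of the members. Neurons with at least 2 UMIs of Tfap2a or Tfap2b and no Onecut numbered 296 control and 402 mutant barcodes. All 22 genes were higher in the Onecut2/Prox1 cells than in these in both libraries, yet none by 2-fold in both. The 22 had been picked for high ratios over other neurons, which include the Tfap2a/Tfap2b neurons. No share over all genes is given, so nothing is read from all 22 being higher. Calb2 stood at 94.5 and 125 CPM in the Tfap2a/Tfap2b neurons, Nhlh2 at 410 and 377, Slc1a6 at 289 and 275, and Ptf1a at 488 and 458, which is close to its level in the members. Meis2, a homeodomain factor of amacrine cells, ran the other way, at 268 and 298 in the members and 777 and 1169 in the Tfap2a/Tfap2b neurons. Otx2/Neurod4 cells and Atoh7/Neurog2 cells were chosen with no Onecut and with fewer than 2 UMIs of Tfap2a and Tfap2b together. The Atoh7/Neurog2 cells also had no Neurod4. In both groups each of the 22 genes was more than 2-fold lower than in the members in both libraries. Calb2, for example, stood at 4.33 and 6.30 CPM in the Otx2/Neurod4 cells. The choice left out barcodes with more of the AP-2 genes, and no share over all genes is given, so nothing is read from this count.

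The upstream sequences of 3 bHLH genes described above, Ptf1a of the horizontal list and Nhlh2 and Neurod2 of the 22 genes, are shown because bHLH proteins read the E-box (letters CANNTG, its own reverse complement in form) and ONECUT proteins read a core written here as ATTGAT or, on the other strand, ATCAAT. They are the 250 bases before the annotated start, from RefSeq on GRCm38.p6, 5′ to 3′ on the strand of the gene, with matches in capitals. Ptf1a lies at chr2:19445413-19445662 on the plus strand, Nhlh2 at chr3:102009895-102010144 on the plus strand and Neurod2 at chr11:98329646-98329895 on the minus strand.
Ptf1a: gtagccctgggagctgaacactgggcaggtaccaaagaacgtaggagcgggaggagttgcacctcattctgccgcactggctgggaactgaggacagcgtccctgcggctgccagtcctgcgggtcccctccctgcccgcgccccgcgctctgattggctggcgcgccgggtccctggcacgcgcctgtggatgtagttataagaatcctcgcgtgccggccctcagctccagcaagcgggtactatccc
Nhlh2: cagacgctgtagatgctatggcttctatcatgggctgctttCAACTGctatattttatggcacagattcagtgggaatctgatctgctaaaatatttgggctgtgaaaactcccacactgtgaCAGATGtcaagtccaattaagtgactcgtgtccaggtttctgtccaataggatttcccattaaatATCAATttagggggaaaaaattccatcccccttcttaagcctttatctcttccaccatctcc
Neurod2: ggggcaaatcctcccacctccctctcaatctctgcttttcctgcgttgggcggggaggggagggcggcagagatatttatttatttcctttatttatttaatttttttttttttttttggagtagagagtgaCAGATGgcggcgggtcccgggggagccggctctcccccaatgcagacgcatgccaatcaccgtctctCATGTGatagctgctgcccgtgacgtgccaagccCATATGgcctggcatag

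Nhlh2 held 2 E-boxes, 209 and 127 bases before the start, and 1 ATCAAT at 62 bases. Neurod2 held 3 E-boxes, at 118, 51 and 17 bases. Neither the Ptf1a window nor that of Prdm13 (chr4:21685964-21686213, minus strand) held either letter string. Windows for 17 of the 25 genes were found, in 19 entries, of which 15 (78.9%) held an E-box, against 66.2% of all 32851 entries. The Onecut core was in 2 of the 19 (10.5%) and in 6.72% of all. The matches are a description of letters and do not show binding.

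The members were not uniform. They were split, after their values were seen, by Ptf1a or Tfap2a and by Otx2 or Crx, the homeodomain factors of photoreceptor and bipolar precursors. Ptf1a or Tfap2a without Otx2 and Crx was found in 81 control members, or 38.6% (32.0 to 45.5), and in 105 mutant members, or 39.0% (33.2 to 45.1). Otx2 or Crx without Ptf1a and Tfap2a was found in 61 (29.0%) and 73 (27.1%). Both pairs were found in 50 (23.8%) and 54 (20.1%), and neither in 18 (8.57%) and 37 (13.8%). The intervals of each share overlapped between the genotypes. Members with both pairs had the highest median depth, 8899.5 and 8174.5 UMIs, against 5309 and 6162 for the Ptf1a/Tfap2a subset and 4728 and 4886 for the Otx2/Crx subset. Otx2 was also read in cells that should lack it. At 1000 UMIs a cell, 31.7% of control and 29.7% of mutant members held Otx2, against 15.7% and 4.43% of collagen-rich cells (unthinned 52.9% and 45.0% against 26.2% and 14.2%). The shares at 1000 UMIs were higher in other neurons, 41.5% and 37.3%, and lower in Tfap2a/Tfap2b neurons, 10.5% and 7.48%. The part of free RNA in the split was not tested.

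The genes that separated members from other neurons were high in the subsets with Ptf1a or Tfap2a. All 22 were higher in the Ptf1a/Tfap2a subset than in the Otx2/Crx subset in both libraries, with a median log2 ratio of 3.66 (control) and 3.53 (mutant). The 22 were picked from these same members and the split was made after values were seen. No share over all genes is given, so the count describes the split and nothing more is read from it. Calb2 stood at 213 and 272 CPM in the Ptf1a/Tfap2a subset and at 0 in the Otx2/Crx subset of both libraries. Nhlh2 stood at 637 and 644 against 12.7 and 11.7, Slc1a6 at 486 and 494 against 9.51 and 2.34, and Prdm13 at 573 and 497 against 0 and 2.34. In the subset with both pairs Calb2 stood at 187 and 144, Nhlh2 at 583 and 462, Slc1a6 at 447 and 334 and Prdm13 at 404 and 379. Tubb3, a neuronal tubulin, stood at 2604 and 2257 against 466 and 436. Neurod1, a bHLH factor of photoreceptor precursors, was the reverse, at 141 and 139 in the Ptf1a/Tfap2a subset and 1404 and 1371 in the Otx2/Crx subset.

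The subset with neither pair carried progenitor genes. Ccnd1 (cyclin D1) stood at 3751 and 3820 CPM and the Notch target Hes1 at 1217 and 1069, against 349 and 446 for Ccnd1 and 171 and 141 for Hes1 in the Ptf1a/Tfap2a subset. Onecut2 and Prox1 were held by all 4 subsets. Onecut2 ranged from 204 to 348 CPM over the 4 control subsets and from 206 to 256 over the mutant subsets.

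**Figure D4:**
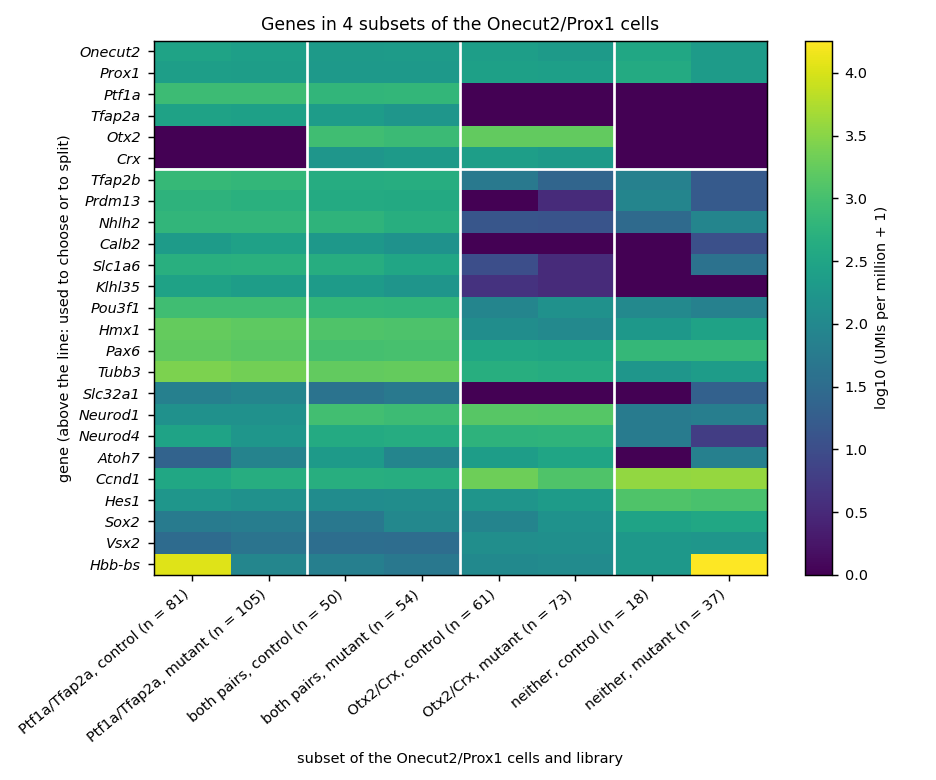
Log10 of CPM plus 1 (color) for 25 genes in 4 subsets of the Onecut2/Prox1 cells, each in the control and mutant library. Prdm13, Nhlh2, Calb2, Slc1a6 and Klhl35 are high where Ptf1a or Tfap2a is present and low or at 0 in the Otx2/Crx subset, and Ccnd1 and Hes1 are highest in the subset with neither pair.

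Members positive for another class of gene were counted too. At least 2 UMIs of S phase genes were held by 147 control (70.0%) and 209 mutant members (77.7%), without thinning, and at least 2 of G2 and mitosis genes by 64 (30.5%) and 88 (32.7%), although Mki67 was at 0 by rule. Such shares depend on depth, a median of 5524.5 and 5919 UMIs, and no comparison group is given, so nothing is read from them. The 8 measured G2 and mitosis genes were all lower than in other neurons in both libraries, where 4.89% of all genes tested were, in cells chosen for the absence of 1 such gene. Doublet scores marked 26 control members (12.4%) and 30 mutant members (11.2%) when the share of barcodes marked was set to the expected rates of 11.4% and 9.78%. With the threshold that the tool picks by itself, 0% of barcodes were called in the control library, where it therefore did not work, and 5.46% in the mutant one. The part of doublets in members that hold both pairs of the split was not tested.

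Between genotypes few genes passed 2-fold in the members. Of the 7743 genes, 23 (0.297%) were at least 2-fold higher and 26 (0.336%) at least 2-fold lower in mutant members. Counting intervals lay above 0 for 482 genes (6.22%) and below 0 for 372 (4.8%). Among the 23 were Xist, 1 crystallin gene and 6 genes with over 50% of the mutant UMIs in 1 member. Among the 26 were 4 Y-linked genes, 5 crystallin genes and 9 genes with over 50% of the control UMIs in 1 member, and 10 of the 26 were also 2-fold lower in the other mutant neurons, while 1 of the 23 was 2-fold higher there.

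Of the 12 genes furthest higher in the mutant, Igfbp2, an IGF-binding protein, had 321 control and 1009 mutant UMIs. It stood at 222 (199 to 248) and 533 (500 to 566) CPM, a log2 ratio of 1.24 (1.08 to 1.45), against -0.04 in other neurons, and 1 mutant member held 19.7% of its UMIs. In the members with 2 UMIs of each pair the log2 ratio of Igfbp2 was -0.30, and with an upper limit of 20000 UMIs it was 0.81, below 2-fold. Ndufa4l2, a mitochondrial protein induced by hypoxia, stood at 139 and 315 CPM, a log2 ratio of 1.15 (0.94 to 1.41). In other neurons its log2 ratio was 0.60, and in the members that met the rule at 2000 UMIs it was -0.0017. Cox4i2, the hypoxia-linked isoform of a cytochrome oxidase subunit, stood at 38.1 and 105, a log2 ratio of 1.35 (1.03 to 1.92), and in other neurons of 0.74. Cdkn1c, a cell cycle inhibitor, stood at 252 and 518, a log2 ratio of 1.02 (0.86 to 1.22), and 1 mutant member held 26.9% of its UMIs. The ratio of Cdkn1c was 1.99 with 2 UMIs of each pair and 1.45 with doublets removed. It was 0.76, below 2-fold, with an upper limit of 20000 UMIs. All 76 UMIs of Myog, a muscle factor, came from 1 mutant member, and 1 member held 93.6% of those of Actc1, a muscle actin. Dpep1, S100a6, Prss56, Matn4, Cpz and Sparc made up the 12, and 3 of the 12 were also higher in the other mutant neurons. Sparc, at a log2 ratio of 0.85, turned to -0.73 in the members with 2 UMIs of each pair and to -0.35 with members weighted equally.

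The 12 genes furthest lower in the mutant were led by 5 lens crystallins. Cryge had 124 UMIs in control members and 0 in mutant members, Cryba1 96 and 0, Crybb3 83 and 0, Cryaa 80 and 0, and Cryga 71 and 0. The upper bound of the interval of the plain log2 ratio was -5.44 for Cryge and -4.62 for Cryga. Another crystallin, Cryab, which is also made outside the lens, ran the other way, at 31.2 and 67.6 CPM with 57.0% of the mutant UMIs in 1 member. In other neurons the same genes stood between 70.1 and 101 CPM in the control and at or below 0.56 in the mutant, so the difference was not particular to these cells. Spp1 (osteopontin) stood at 74.8 and 1.06 with 60.2% of the control UMIs in 1 member. Rgr, Ttr, Slc16a8, Rdh5 and Ptgds, which are genes of the pigment epithelium, had between 61.3% and 87.1% of their control UMIs in 1 member. Ramp2, a receptor partner, completed the 12. All 12 had log2 ratios below 0 in other neurons as well, although for Ptgds and Rdh5 these were -0.03.

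**Figure D5:**
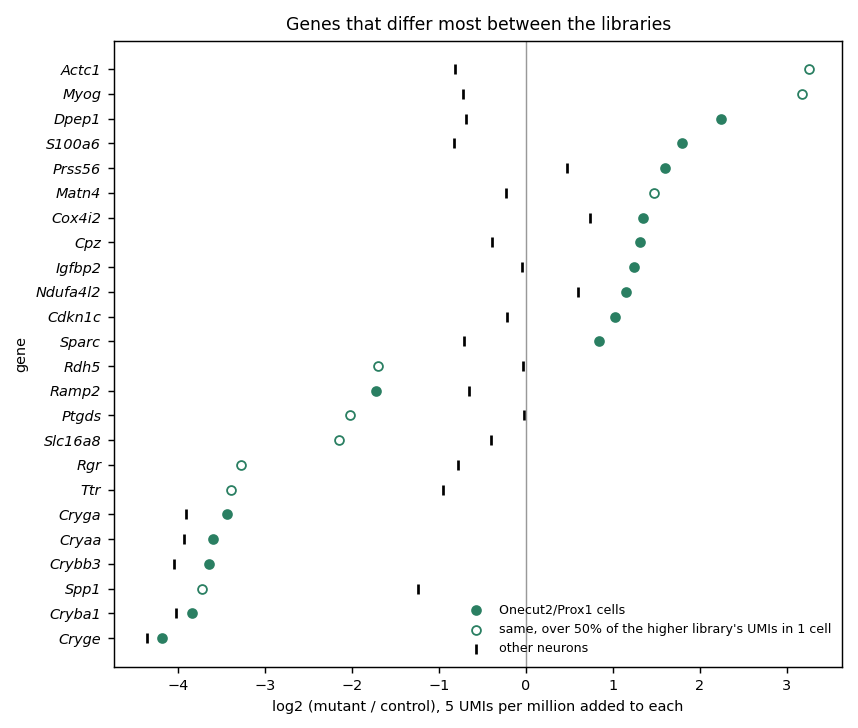
Log2 ratio of mutant to control for the 12 genes furthest higher and the 12 furthest lower in mutant Onecut2/Prox1 cells (circles) and the same ratio in other neurons (ticks), 5 CPM added to each. Open circles mark genes with over 50% of the higher library's UMIs in 1 cell, and the 5 crystallin genes, at 0 in mutant members, lie at the lower left with other neurons beside them.

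Gene lists were compared between genotypes by counts and medians. Of 14 measured glycolysis and hypoxia genes, 9 had intervals above 0 (against 6.22% of all genes) and none below, with a median log2 ratio of 0.29, and a range from -0.21 to 0.62. The same genes had a median of 0.33 in other neurons. With the rule applied at 2000 UMIs per barcode the members' median was 0.17, and with Lhx1 required (2 and 3 members) it was -0.76. Aldoa, an aldolase, stood at 376 (345 to 409) and 579 (545 to 614) CPM, a log2 ratio of 0.62 (0.47 to 0.77), against 0.56 in other neurons. Pgk1 stood at 285 and 433 with 0.59 (0.43 to 0.78), against 0.76, and the glucose transporter Slc2a1 at 156 and 187 with 0.26 (0.02 to 0.51), against -0.03. Within each of the 4 subsets the list's median was above 0, from 0.26 in the Ptf1a/Tfap2a subset to 0.78 in the subset with neither pair.

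S phase genes had 8 of 15 measured members with intervals above 0 and none below, and a median of 0.45, against 0.36 in other neurons. Over all genes 6.22% lay above. By subset the list's median was 0.74 in the Ptf1a/Tfap2a subset, 0.36 with both pairs and 0.70 with neither, and -0.19 in the Otx2/Crx subset, where 6 of 15 genes were higher. Mcm6, a subunit of the replicative helicase, stood at 40.9 and 79.7 CPM and Pcna at 90.0 and 124. Of the 8 measured G2 and mitosis genes, 3 (Aurkb, Ccna2 and Top2a) had intervals above 0. Progenitor genes had 3 of 11 above (Hes1, Hes5 and Sox2) and 1 below (Sfrp2). Sox2 stood at 72.0 and 120. Among 13 neurogenic genes, those above included Btg2 and Hes6, and Neurod1 and Neurod4 lay below. The depth of the libraries and the share of the subset with neither pair, 8.57% and 13.8%, moved the same way, and their part in these values was not tested.

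Amacrine genes had 4 of 8 with intervals below 0 (Ebf1, Nhlh2, Prdm13 and Tcf4, against 4.8% of all genes) and none above, with a median of -0.21, against -0.14 in other neurons. Ebf1 stood at 124 and 78.6 CPM, a log2 ratio of -0.62 (-0.98 to -0.33). The cholinergic genes of starburst cells, Chat, Slc18a3 and Slc5a7, were at 0 in both libraries. Photoreceptor genes had 4 of 8 below (Gngt2, Nrl, Opn1sw and Otx2), with a median of -0.32, against 0.15 in other neurons. Otx2 stood at 695 (652 to 739) and 603 (569 to 639). It stood at 1715 and 1723 within the Otx2/Crx subset, and at 898 and 806 in the subset with both pairs.

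Over all genes 6.22% had intervals above 0 and 4.8% below, and the counts that follow are read against these shares. Cytoskeleton and neurofilament genes had 6 of 15 below (Ina, Stmn2, Tuba1a, Tubb2a, Tubb2b and Tubb3) and none above, with a median of -0.06, against 0.14 in other neurons. Tubb3 stood at 1693 and 1503 CPM and Stmn2 at 409 and 357. By subset the list's median was -0.04 in the Ptf1a/Tfap2a subset and -0.11 in the Otx2/Crx subset, 0.02 with both pairs and 0.07 with neither. In members with 2 UMIs of each pair it was 0.016, and Tubb3 ran the other way, at 1727 and 2261. Synaptic genes had 2 of 12 below, among them Nrxn3. Genes for GABA synthesis and transport (4 measured), glutamate receptors (4) and calcium-binding proteins (4) had no member with an interval apart from 0. Among migration and spacing genes, Cxcr4 and Reln lay above and Cdh11, Nrp1 and Sema6a below, of 10. Homeodomain factors had 2 of 19 above (Rorb and Zfhx3) and 2 below (Ebf1 and Pax6).

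Genes of other cells in the cup were read in the members as well. Pigment epithelium genes had 4 of 8 below and 1 above, with a median of -0.52, against -0.49 in other neurons, and their summed level was 813 and 502 CPM in the members against 316 and 218 in other neurons. This sum includes Rgr and Ttr, of which single members held most of the control UMIs, so it is not a level shared by the members. Collagen and other mesenchyme genes had 3 of 6 above (Col1a1, Col1a2 and Col3a1) and none below, with a median of 0.17, against -0.96 in other neurons. These genes summed to 2254 and 2553 CPM, against 5554 and 2920 in other neurons, and blood genes to 5841 and 3394, against 1623 and 1226. Single members held much of the haemoglobin UMIs in the blood sums, as given above. Endothelial genes summed to 89.3 and 96.6, with Pecam1 and Cdh5 at 0 by rule. Genes of the dissociation response had 2 of 9 above and none below, and a median of 0.00. The p53 targets had 1 of 5 below (Mdm2) and none above. The part of RNA from other cells in the values above was not tested.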

How the data were processed

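Single cell 3' libraries (10x Genomics Chromium) were made from papain-dissociated P0 eye cups, 1 library for each of 2 genotypes. The deposited matrices give UMI counts, not normalized, which the authors made with Cell Ranger 7.1.0 against mm10 (the matrix headers carry software version 3.1.0). The gene annotation is not given in the sources used here. Seurat 4.1.1 is named in the submitters' processing notes. Its normalized values are not used here. The matrices hold 14305 and 12222 barcodes, as many as the cells the study counted.

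Barcodes with at least 200 genes and at most 15% mitochondrial UMIs were kept (14131 and 12027). The study's stated upper limit of 2000 UMIs would leave 2696 and 810 and was used only as an alternative. Doublets were kept, and were removed with Scrublet (scanpy 1.11.5) at 0.8% per 1000 barcodes in an alternative. Counts were summed over members and scaled to 1000000. Intervals are exact Poisson, conditional Poisson for ratios (95%) and Clopper-Pearson for shares, and cover counting error only. Those of ratios are for the plain ratio, with no count added. Called means past 2-fold or 4-fold with 5 counts per 1000000 (CPM) added, as no test is possible with 1 library a group. Gene IDs were matched to GENCODE M21 (30934 of 31053), and a symbol carried by several IDs was kept per ID. Python 3.11.15 with numpy 2.4.6, scipy 1.17.1 and pandas 2.3.3 was used. The ratio script was tested on simulated data.

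The members and gene lists were chosen with earlier results of these data known, and the 4 subsets and comparison groups after values were seen. The named genes were those of the rule and the horizontal list, the 25 highest over other neurons in both libraries, the 12 furthest in each direction between genotypes by the nearer interval bound (sex-linked and mitochondrial genes left out), the most counted 2 to 4 genes of each other list, and Myrf and Tmem98, with at least 50 member UMIs outside the first and last group. Alternatives changed the cell filters, the rule, the added count, the minimum, the scaling and the denominator. A few named genes are not reported here.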

Additional observations from a re-analysis of the deposited data

Results flagged for a closer look

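Among the genes named for the largest differences between genotypes or from other neurons, 8 had intervals that put the members above other neurons in 1 library and below them in the other. These differences were not tested, as each genotype has 1 library. In the first 7 the members were below other neurons in the control and above them in the mutant, on the log2 scale. The gap between the libraries was 3.89 for Myog (-0.79 in the control, 3.1 in the mutant) and 4.08 for Actc1 (-1.51, 2.58), whose mutant UMIs came almost wholly from 1 member. It was 2.93 for Dpep1 (-1.57, 1.36), 1.71 for Cpz (-1.08, 0.63), 1.28 for Igfbp2 (-0.47, 0.81) and 1.24 for Cdkn1c (-0.49, 0.75). For Ndufa4l2 it was 0.55 (-0.40, 0.15). Dpep1 and Cpz fell under the minimum of 50 UMIs with doublets removed and with an upper limit of 20000 UMIs. Spp1 ran the other way, with a gap of -2.48 (0.87, -1.61), and 1 control member held 60.2% of its UMIs.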

How the results depend on the processing

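No paired analysis was possible because each genotype has 1 library. The log2 ratio of the members' share (0.59) was 0.17 among neurons, 0.078 with the rule applied at 2000 UMIs per barcode and 1.15 with an upper limit of 2000 UMIs (6 and 4 members). Chosen after seeing the data, it was 2.65 among barcodes that held Xist without Y-linked UMIs (4 and 204 members) and -0.48 among those with Y-linked UMIs and no Xist (141 and 23). The cause was not tested. The counts of genes 2-fold higher and lower (23 and 26) were 53 and 40 with 1 CPM added, 8 and 14 with 20 added, 58 and 45 with a minimum of 20 UMIs, 6 and 6 with 200, 74 and 69 with none, 10 and 4 with the rule at 2000 UMIs, 1 and 2 under the upper limit of 2000 UMIs, and 2 and 4 with Lhx1 required (2 and 3 members), where fewer genes reached the minimum. The lower count was 46 with each member weighted equally and 17 without members holding muscle or pigment UMIs, the latter chosen after seeing the data.

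Genes 4-fold over other neurons (1) numbered 5 with 2 UMIs of each pair, 2 with the rule at 2000 UMIs, and 0 with 20 CPM added, with Lhx1 required or under the upper limit of 2000 UMIs. The glycolysis median (0.29) was -0.76 with Lhx1 required. The cytoskeleton median (-0.06) was 0.016 with 2 UMIs of each pair and -0.28 with the rule at 2000 UMIs. Of single genes between genotypes, 329 of 448 recomputed values stayed within the counting interval of the reported value, taken with 5 CPM added on both sides, and 112 left it. The other 7, of genes whose own interval did not span 0, changed sign or fell to 0. With 2 UMIs of each pair Igfbp2 was -0.30, Sparc -0.73 and Tfap2b 0.46. With the rule at 2000 UMIs Ndufa4l2 was -0.0017 and Tfap2b 0.056, and against other neurons Hba-a1 was -2.96, Hbb-bs -3.03, Hba-a2 -2.26 and Pou3f1 -0.019. Sparc was -0.35 with members weighted equally, and Myog 0.00 without its top member. Against other neurons 346 of 364 values moved by less than 0.5, 14 by more, and Hba-a1, Hbb-bs, Hba-a2 and Pou3f1 changed sign as given above. Slc1a6, Nhlh2 and Hmx1 were among the 14, at 0.30, 0.45 and 0.31 with the rule at 2000 UMIs. Also among the 14 were rises with 2 UMIs of each pair, to 2.07 for Calb2, 1.90 for Slc1a6, 1.99 for Lix1, 2.01 for Nhlh2 and 1.85 for Igfbpl1. Depth limits genes under 50 member UMIs, among them Lhx1 and Calb1.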
